A study of Mus musculus with 6 samples.

Results

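The genes described here encode the proteins of the cytosolic ribosome. They were taken by symbol from the deposited count table, as every gene named Rpsa, Rplp0, Rplp1, Rplp2, or Rpl or Rps followed by a number and, for some, by a paralog ending (a, x, l, al or l1). Pseudogenes marked -ps and the Rps6k kinases were not taken. The rule gave 85 of the 47069 genes listed, 52 of the large subunit and 33 of the small subunit. It used no expression value.

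The cells were primary myoblasts grown from muscle stem cells that had been sorted from mdx mice, which carry a mutation in the dystrophin gene and are a model of Duchenne muscular dystrophy. All 6 libraries share that background. The study's methods describe a growth medium with serum and FGF2 for myoblasts, and a low-serum medium for differentiation. Their section on RNA sequencing does not name the medium. The 3 PSB-KD107 libraries were made from cells given 10 μM PSB-KD107, a synthetic agonist of the G protein-coupled receptor Gpr18, and the 3 vehicle libraries from cells given DMSO diluted in an aqueous buffer. The sample labels state a treatment of 2 days, whereas the study's methods state an overnight treatment. The cells came from 3 mice according to the methods, although the labels do not say which library came from which mouse. The methods give an age for the injected mdx mice only, and none for the mice whose cells were grown. The libraries are called by the numbers of the count table, which are 1, 2 and 4 in both groups.

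A cytosolic ribosome is built from a large subunit, which joins amino acids into protein, and a small subunit, which reads the mRNA. Each subunit holds ribosomal RNA and a single copy of most of its proteins, so cells make these proteins in matched amounts. Their mRNAs are among the most abundant of growing cells. Most begin with a terminal oligopyrimidine tract (TOP), a run of C and T in the DNA at the transcription start, through which the kinase mTOR, its target 4E-BP1 and the RNA-binding protein Larp1 set how strongly the mRNA is translated. That control acts on translation, and the measurements here are of mRNA only.

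The starts of a few genes described below are shown as examples of pyrimidine runs. They do not represent the set, as most of them hold a run of at least 8 bases. Of the ribosomal protein genes with a listed start, 38.1% do. Each line gives 30 bases of the strand of the gene from the RefSeq promoter table (GRCm38.p6), with 15 bases before the annotated start and 15 from it onward, and capitals mark the longest run of C and T in the window that begins with a C.
Rpl15 (chr14:18270972-18271001, minus strand): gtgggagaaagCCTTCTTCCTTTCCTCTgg
Rps6 (chr4:86857353-86857382, minus strand): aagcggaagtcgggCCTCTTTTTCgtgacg
Rps27 (chr3:90213634-90213663, minus strand): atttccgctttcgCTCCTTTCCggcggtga
Rps27l (chr9:66946071-66946100, plus strand): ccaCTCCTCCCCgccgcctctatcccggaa
Rpl22l1 (chr3:28805493-28805522, plus strand): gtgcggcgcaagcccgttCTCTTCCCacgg
Rplp0 (chr5:115559452-115559481, plus strand): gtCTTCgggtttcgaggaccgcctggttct

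In Rpl15, Rps6 and Rps27 the run lies across the annotated start, in Rps27l it lies before the start, in Rpl22l1 it lies just after it, and Rplp0 has only a run of 4 bases in this window. The table held a start for 63 of the 85 genes. A run of at least 8 bases of C or T that begins with C, read on the strand of the gene only, occurred in the windows of 24 of these 63 (38.1%), against 9.26% of the 32851 starts of all genes in the table. It occurred in 16 of 40 starts (40.0%) of the large subunit and in 8 of 23 (34.8%) of the small subunit. Annotated starts can lie some bases away from the start used in these cells, and the RefSeq start was within 50 bases of the GENCODE start for 45 of the 63 genes.

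Of the 85 genes, 80 had enough counts to be tested, 49 of the large and 31 of the small subunit. The other 5 were at or near 0. Rpl10l and Rpl39l, copies with a restricted expression in testis, had no count in any library, where 3 counts would be 0.0596 to 0.0962 counts per 1000000 (CPM, scaled by TMM factors) depending on the library. Rpl3l, the form of Rpl3 found in mature striated muscle, had 3, 3 and 0 counts in vehicle 1, 2 and 4 and 3, 1 and 2 in PSB-KD107 1, 2 and 4. Rps4l had 12, 1 and 1 counts in vehicle and 11, 1 and 0 in PSB-KD107, and Rps12l1 had at most 2. Rps4l and Rps12l1 are annotated as processed pseudogenes.

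Together the 85 genes took 3.22% of all counts in vehicle 1, 2.72% in vehicle 2 and 2.72% in vehicle 4. The share was 3.08% in PSB-KD107 1, 2.56% in PSB-KD107 2 and 2.73% in PSB-KD107 4. Wilson 95% intervals were at most ± 0.0056 percentage points, which covers counting error only. The mean was 2.89% ± 0.286 in vehicle and 2.79% ± 0.264 in PSB-KD107 (SD, n = 3), so the groups overlapped and the difference was smaller than the spread within either group. In bulk RNA a lower level of a transcript per cell and fewer cells that carry it cannot be told apart.

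Among the 80 tested genes, the level per length in vehicle (mean CPM divided by the length of the principal transcript) ranged from 96.6 to 1368 CPM per kilobase in the large subunit, with a median of 439, and from 90.7 to 1146 in the small subunit, with a median of 494. On this scale the highest genes of the large subunit were Rplp1 (1368), a protein of the acidic stalk that recruits translation factors, Rpl41 (995), the shortest protein of the ribosome, and Rplp0 (877), the base of the stalk. The highest of the small subunit were Rps2 (1146), at the entry of the mRNA channel, Rps14 (1067), at the platform, and Rps12 (865). The lowest were the paralogs Rpl22l1 (96.6), Rpl7l1 (101) and Rpl36al (144) in the large subunit, and Rps20 (90.7), Rps24 (175) and Rps27l (212) in the small subunit. The values of Rps20 and Rps24 rest on long annotated transcripts, of 3706 and 1613 bases, for coding sequences of 357 and 399 bases.

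To determine whether PSB-KD107 changed the mRNAs of the ribosome, each gene was compared between the groups by edgeR's quasi-likelihood test over all 14165 genes tested. None of the 80 ribosomal protein genes was called at an adjusted p-value under 0.05, and across all genes none was called either (0.0%). With p-values left unadjusted and the same threshold, 0 ribosomal protein genes were higher and 0 lower, against 6.47% of all genes higher and 2.93% lower. DESeq2 called 0 of the 80 against 2.86% of all genes with an adjusted p-value. The smallest p-value of any ribosomal protein gene was 0.133, for Rplp0 (edgeR, adjusted p = 0.656).

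The log2 fold changes (PSB-KD107 against vehicle) lay between -0.20 and 0.25, with a median of -0.061 over the 80 genes, against a median of -0.00074 over all genes tested. Of the 80, 66 had a log2 fold change below 0 and 14 above 0. The median was -0.062 for the 49 genes of the large subunit, of which 38 were below 0, and -0.060 for the 31 genes of the small subunit, of which 28 were below 0. The difference between the medians of the subunits was -0.0022. The 95% interval of a gene's log2 fold change had a median half-width of 0.296, with narrower and wider intervals for single genes. For a gene at that median, the interval around any smaller estimate includes 0. The adjusted threshold is stricter than a single interval, so this width is not a limit of detection. The lean below 0 depended on the libraries compared. Without vehicle 1, 40 genes were above and 40 below 0 (median 0.0020), and without PSB-KD107 2, 37 were above and 43 below (median -0.012). Between libraries of the same number, 75 of the 80 genes were lower in PSB-KD107 1 than in vehicle 1 (median difference -0.12). For number 2, 76 were lower in PSB-KD107 (median -0.10). For number 4, 35 were lower and 45 higher (median 0.040). Whether libraries of the same number came from the same mouse is not given.

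**Figure D1:**
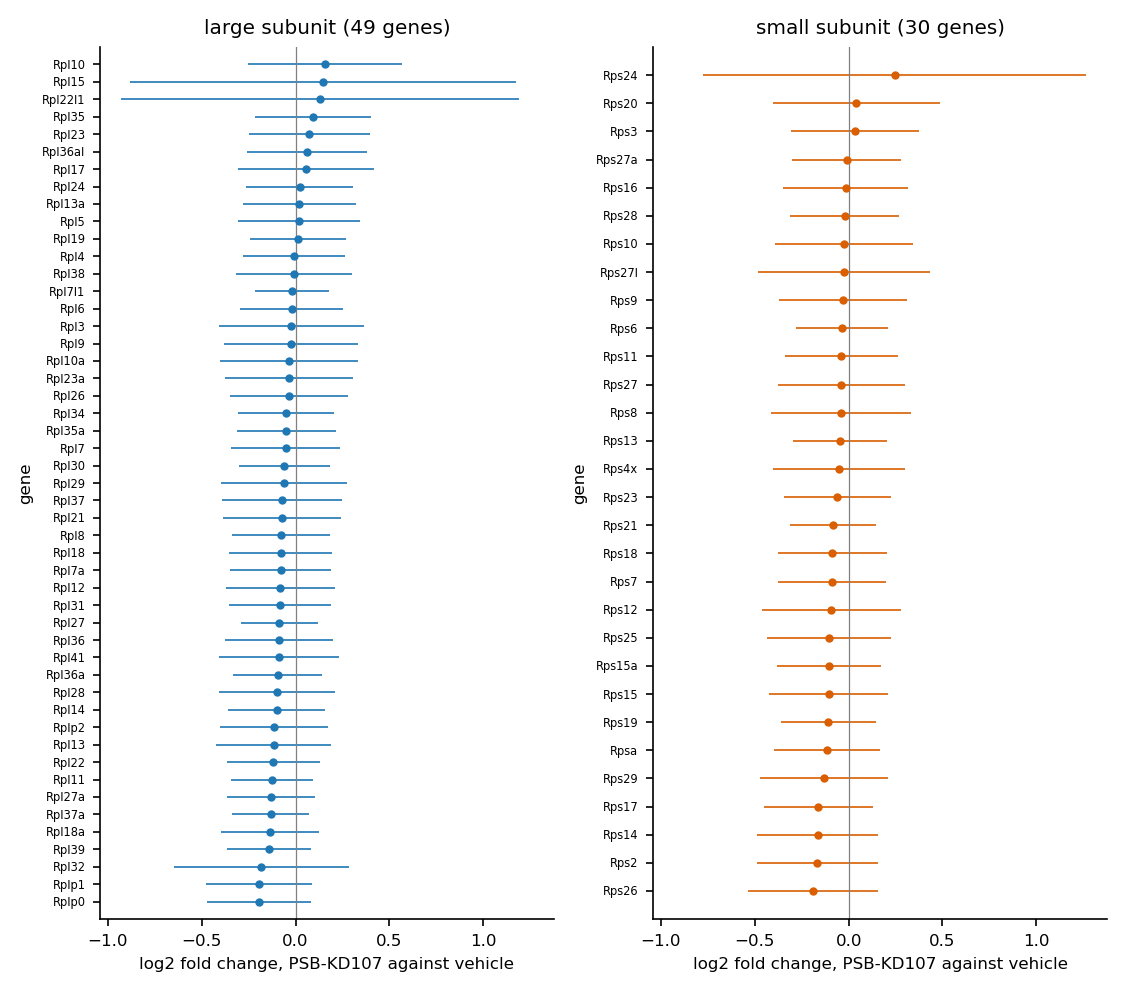
Log2 fold change (x axis) of each tested ribosomal protein gene (y axis), with the large subunit on the left (n = 49) and the small subunit on the right (30 of the 31 genes). Points are edgeR estimates and bars their 95% intervals. Most points lie slightly left of 0, every interval includes 0, and Rpl15, Rpl22l1 and Rps24 have the widest intervals.

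The genes moved together from library to library more than between the groups. As the log2 CPM of each gene minus its mean over the 6 libraries, the median over the large subunit was 0.17 in vehicle 1, -0.05 in vehicle 2 and -0.03 in vehicle 4, and 0.05, -0.15 and 0.02 in PSB-KD107 1, 2 and 4. The median over the small subunit was 0.20, -0.05 and -0.05 in vehicle and 0.09, -0.17 and -0.02 in PSB-KD107. In vehicle 1, 78 of the 80 genes were above their own mean, in PSB-KD107 1 there were 72, in PSB-KD107 4 there were 43, in vehicle 4 there were 31, in vehicle 2 there were 11 and in PSB-KD107 2 there were 3. Vehicle 1 and PSB-KD107 2 were thus the highest and the lowest library for both subunits, and each group held both high and low libraries.

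**Figure D2:**
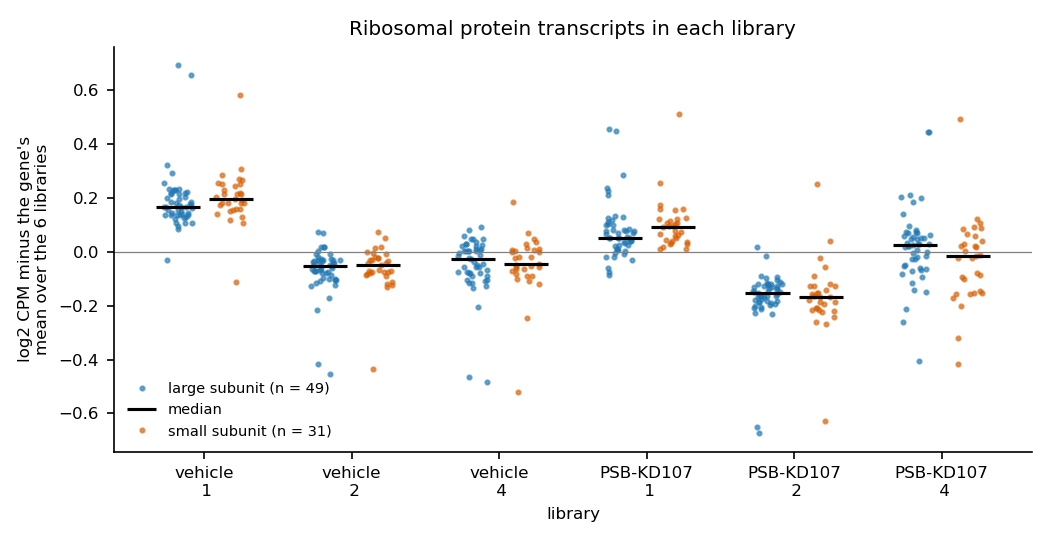
Each point is a tested ribosomal protein gene in a library (x axis), as log2 CPM minus the mean of that gene over the 6 libraries (y axis), for the large (blue) and the small (orange) subunit. Black lines are medians. Vehicle 1 lies highest and PSB-KD107 2 lowest for both subunits, while a few genes stand apart from the rest in every library.

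The balance of the subunits varied less. Summed counts of the large subunit divided by those of the small subunit gave 1.45, 1.47 and 1.48 in vehicle 1, 2 and 4, and 1.45, 1.48 and 1.52 in PSB-KD107 1, 2 and 4. The mean was 1.47 ± 0.0168 in vehicle and 1.48 ± 0.0357 in PSB-KD107 (SD, n = 3), with overlapping groups. The highest ratio was that of PSB-KD107 4, in which the median of the large subunit was 0.040 above that of the small subunit on the log2 scale.

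The acidic stalk, which binds the translation factors that use GTP, included the genes with the smallest p-values. Rplp0 was measured at 1259, 1166 and 1148 CPM in vehicle 1, 2 and 4 and at 1118, 1042 and 958 CPM in PSB-KD107 1, 2 and 4. All 3 PSB-KD107 libraries were below all 3 vehicle libraries. It averaged 1191 ± 59.7 CPM in vehicle against 1040 ± 80.0 CPM in PSB-KD107 (SD, n = 3), a log2 fold change of -0.20 (95% interval -0.47 to 0.080).

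Rplp1, which forms the arms of the stalk with Rplp2, was measured at 703, 671 and 674 CPM in vehicle and at 661, 598 and 531 CPM in PSB-KD107, again without overlap, with a log2 fold change of -0.19 ± 0.12 (SE) and an adjusted p of 0.666 (edgeR). Rplp2 overlapped between the groups, with 401, 332 and 345 CPM in vehicle and 362, 309 and 325 CPM in PSB-KD107. Rpl12, at the stalk base, overlapped as well, with a log2 fold change of -0.08. The 4 stalk genes had a median log2 fold change of -0.15.

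In all, 6 of the 80 ribosomal protein genes (7.5%) had every PSB-KD107 library below every vehicle library, against 6.59% of all genes tested, and none had every PSB-KD107 library above, against 9.2% of all genes. They included Rplp0, Rplp1, Rpl11, Rpl37a and Rps2. With 3 libraries against 3, the exact two-sided permutation test of a single gene gives p = 0.1 for such a gene, which is the smallest p it can give.

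Rpl37a, a zinc-binding protein of the large subunit, had 234, 215 and 219 CPM in vehicle and 210, 196 and 203 CPM in PSB-KD107. In Rps2, which lines the mRNA entry, the separation was narrow except in PSB-KD107 4. It had 1167, 1133 and 1130 CPM in vehicle against 1090, 1106 and 861 CPM in PSB-KD107.

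Rpl5 and Rpl11 carry the smallest ribosomal RNA into the large subunit, and when ribosome assembly fails they bind Mdm2, the inhibitor of p53. Rpl11 had 323, 297 and 301 CPM in vehicle and 292, 269 and 283 CPM in PSB-KD107, with no overlap. Rpl5 had 434, 368 and 380 CPM in vehicle and 402, 347 and 449 CPM in PSB-KD107, with its highest value in PSB-KD107 4. Their log2 fold changes were -0.13 and 0.02, and neither passed the test.

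The 9 genes whose proteins line or surround the tunnel through which the new protein leaves the ribosome had a median log2 fold change of -0.036, with 6 below 0 and none past the test. The extremes were Rpl39 (-0.14), a very small protein of the tunnel wall, and Rpl35 (0.09), at the tunnel exit. Rpl39 had 126, 116 and 120 CPM in vehicle and 119, 104 and 106 CPM in PSB-KD107. Rpl35 had 259, 211 and 223 CPM in vehicle and 276, 241 and 223 CPM in PSB-KD107. Both overlapped between the groups.

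Of the 10 genes at the mRNA channel and the decoding site of the small subunit, 9 had a log2 fold change below 0, with a median of -0.097, and none passed the test. Rps26, which touches the mRNA upstream of the start codon, had the lowest value (-0.19), with 361, 303 and 299 CPM in vehicle and 325, 249 and 270 CPM in PSB-KD107. Rps3, at the mRNA entry, was the exception (0.03). Rps6, the substrate of the S6 kinases, had 242, 210 and 221 CPM in vehicle and 223, 203 and 232 CPM in PSB-KD107, with a log2 fold change of -0.04 (95% interval -0.28 to 0.21).

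Among genes with a log2 fold change above 0, the smallest p-value was that of Rpl10, a protein that joins the large subunit late and is needed for the subunits to meet. Rpl10 had 474, 359 and 362 CPM in vehicle and 508, 377 and 445 CPM in PSB-KD107, with overlapping groups and a log2 fold change of 0.15 ± 0.17 (SE, edgeR adjusted p = 0.804). Rpl23 (0.07) and Rpl36al (0.06) followed Rpl35 and Rps24 in the order of p-values.

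Most ribosomal protein genes differed by at most 0.5 in log2 CPM across the libraries. The difference between the highest and the lowest of the 6 libraries in log2 CPM had a median of 0.374 over the 80 genes. It was 0.596 over the other 10056 genes with a mean of at least 5 CPM. Those genes were not matched by level, as the 80 genes had vehicle means of at least 53.3 CPM. The median SE of the log2 fold change was 0.122 over the 80 genes and 0.227 over all genes tested. Over 2189 other highly expressed genes, it was 0.143. The cutoff of mean CPM for these genes lay above the levels of the lowest ribosomal protein genes, so they were not matched by level either. Whether the 80 genes were steadier than genes of like level was not tested. The difference between libraries was smallest for Rpl7l1 (0.13), a nucleolar relative of Rpl7. Rpl7l1 had 128, 128 and 140 CPM in vehicle and 131, 130 and 130 CPM in PSB-KD107. It exceeded 0.5 in 8 genes, which were Rpl22l1 (1.37), Rpl15 (1.31), Rps24 (1.21), Rpl32 (0.73), Rps27l (0.67), Rps26 (0.54), Rps20 (0.53) and Rps14 (0.51).

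Rpl15 and Rps24 shared their pattern. Rpl15, a large subunit protein, had 233, 111 and 106 CPM in vehicle 1, 2 and 4 and 202, 94.2 and 202 CPM in PSB-KD107 1, 2 and 4. Rps24, a small subunit protein, had 433, 214 and 202 CPM in vehicle and 412, 187 and 407 CPM in PSB-KD107. Both were high in vehicle 1, PSB-KD107 1 and PSB-KD107 4 and low in the other 3 libraries, so each group held both levels.

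Both genes lie on chromosome 14, Rpl15 at 18267823-18271391 (minus strand) and Rps24 at 24487125-24496959 (plus strand) in GRCm38. They are the only tested ribosomal protein genes on that chromosome. The other genes of chromosome 14 moved the same way. Over 328 genes there, the median of log2 CPM minus the mean of the gene was 0.37, -0.36 and -0.44 in vehicle 1, 2 and 4 and 0.42, -0.37 and 0.44 in PSB-KD107 1, 2 and 4. Over the 18 chromosomes other than 14 and 6, such medians lay between -0.083 and 0.071. When each library was offset by the median of each chromosome, the log2 fold change of Rps24 went from 0.25 to -0.07 and that of Rpl15 from 0.15 to -0.16, a change of sign in both, and neither was called in either fit.

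Rpl32, the only tested ribosomal protein gene on chromosome 6 (115805505-115808747, minus strand), had 454, 355 and 364 CPM in vehicle and 425, 334 and 274 CPM in PSB-KD107, with the lowest value in PSB-KD107 4. The 503 other genes of chromosome 6 had a median deviation of -0.42 in PSB-KD107 4 and between 0.032 and 0.11 in the other 5 libraries. With the chromosome offset the log2 fold change of Rpl32 went from -0.18 to -0.05. DNA was not measured in these samples, and the cause of the chromosome-wide shifts was not tested. Rpl15 and Rpl32 were chosen for description after their values were seen.

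**Figure D3:**
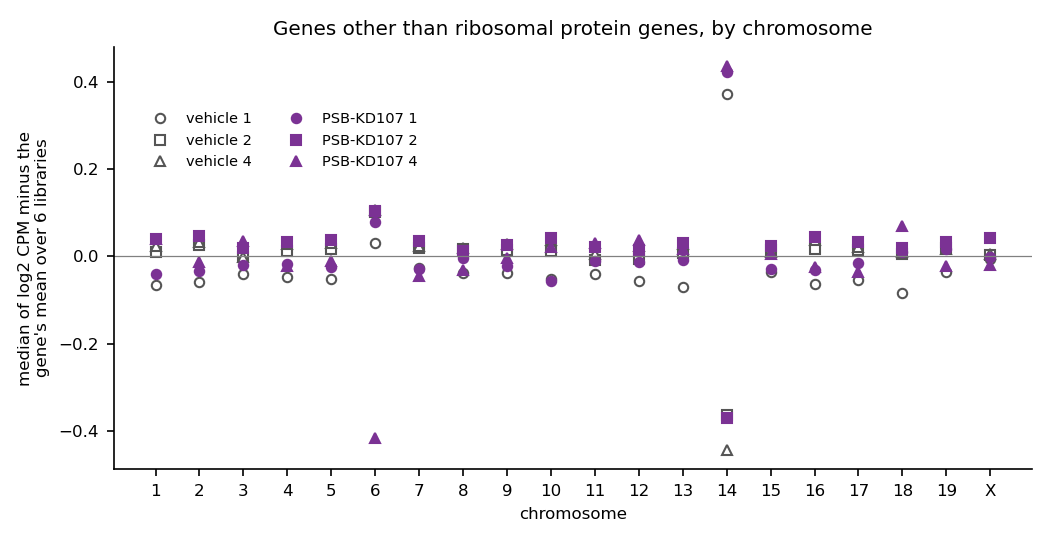
Median over the genes of each chromosome (x axis), ribosomal protein genes left out, of log2 CPM minus the mean of each gene over the 6 libraries (y axis). Open grey symbols are vehicle and filled purple symbols PSB-KD107 libraries. Chromosome 14 splits into libraries near 0.4 and libraries near -0.4, and PSB-KD107 4 stands alone on chromosome 6 at -0.42.

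Rpl22l1, the paralog of Rpl22, followed the pattern of chromosome 14 although it lies on chromosome 3. It had 84.3, 38.0 and 37.7 CPM in vehicle and 71.5, 32.6 and 71.0 CPM in PSB-KD107, whereas the medians of chromosome 3 lay between -0.04 and 0.03. Rpl22 itself had 223, 201 and 204 CPM in vehicle and 189, 179 and 210 CPM in PSB-KD107. Rpl22 protein is known to lower the level of Rpl22l1 mRNA. Counted per length, Rpl22l1 made up 24.5%, 14% and 13.7% of the pair in vehicle 1, 2 and 4 and 24.5%, 13.5% and 22.5% in PSB-KD107 1, 2 and 4.

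Rps27l, a paralog of Rps27 and a known target of p53, was lowest in PSB-KD107 4. It had 96.2, 104 and 118 CPM in vehicle and 111, 124 and 77.8 CPM in PSB-KD107. Its share of the pair per length was 24.3%, 28.7% and 33.0% in vehicle and 27.6%, 35.6% and 22.9% in PSB-KD107, which overlapped.

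Of the 4 paralog pairs in which both genes were tested, only Rpl36a and Rpl36al had shares that did not overlap between the groups. Rpl36al made up 35.8%, 35.3% and 34.7% of its pair in vehicle and 40.2%, 36.9% and 36.1% in PSB-KD107. The smallest gap between the groups, of 36.1% against 35.8%, was smaller than the counting error, as the Wilson 95% intervals of these shares were up to ± 1.2 percentage points wide. The Rpl36al gene overlaps another annotated gene on the same strand, and the coding sequences of the pair are alike, so that reads could have been split between them. Rpl7l1 made up 14.6% to 17.7% of its pair in vehicle and 15.4% to 18% in PSB-KD107.

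**Figure D4:**
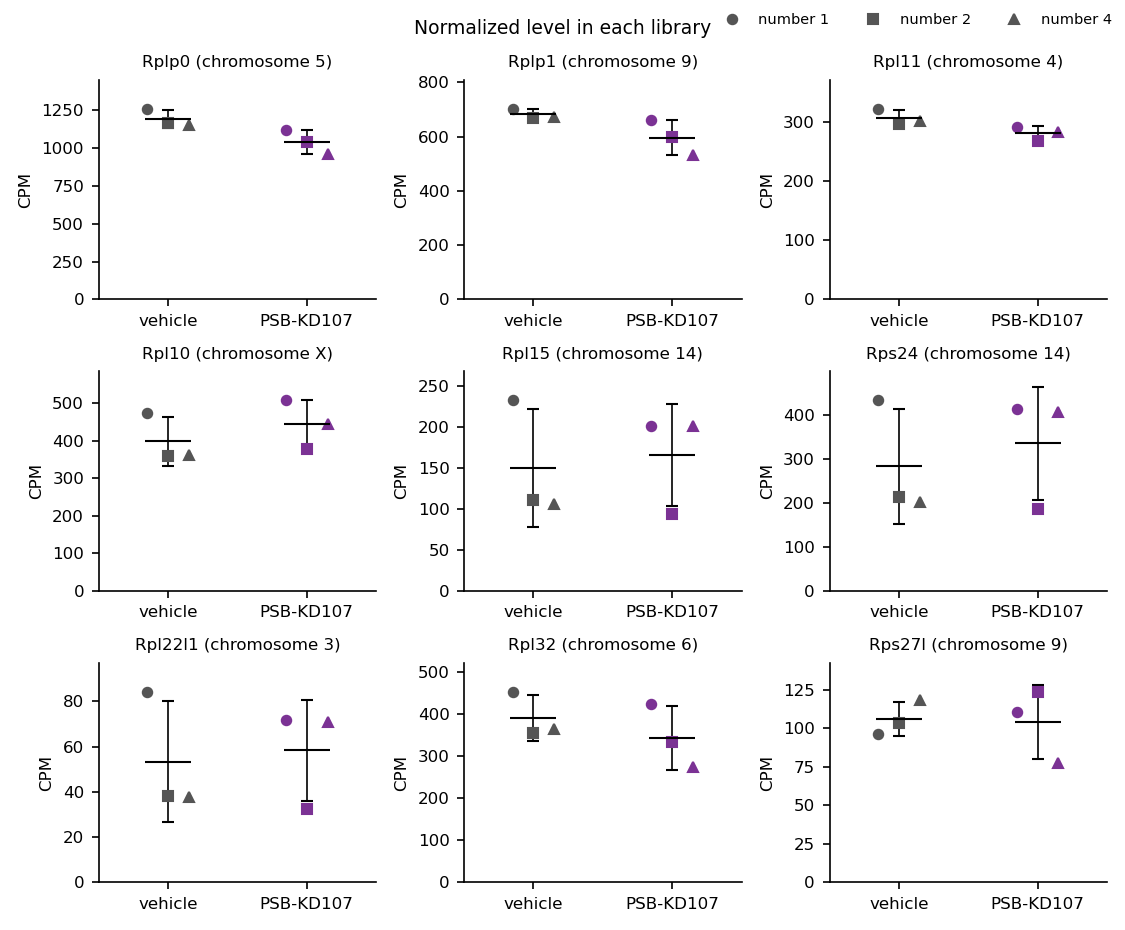
Normalized level (CPM, y axis) of 9 ribosomal protein genes in each library, with symbols for the library number and black lines for the mean and SD of each group (n = 3). Rplp0, Rplp1 and Rpl11 do not overlap between the groups, while Rpl15, Rps24 and Rpl22l1 are high in the same 3 libraries of both groups.

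**Figure D5:**
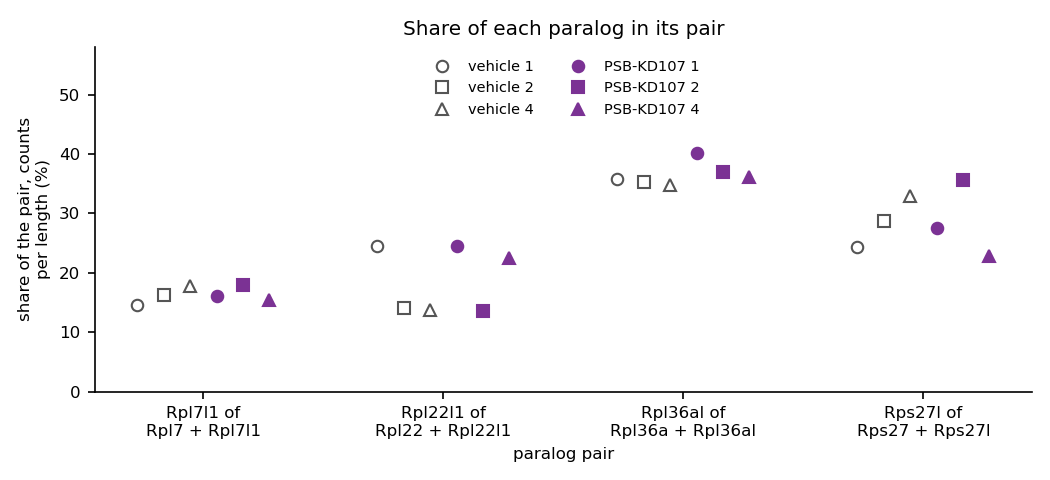
Share of the minor paralog in its pair (y axis, percent of counts per transcript length) in each of the 6 libraries for 4 pairs (x axis). Open grey symbols are vehicle and filled purple symbols PSB-KD107. Rpl22l1 takes either about 14% or 22.5% to 24.5% of its pair, in libraries of both groups.

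Some ribosomal genes are left out by the naming rule. Fau, which encodes a ribosomal protein fused to a ubiquitin-like protein, had a log2 fold change of 0.06, Rps3a1 had 0.02, and Rack1, a scaffold on the small subunit, had 0.02. None passed the test.

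Other mRNAs with a TOP tract, mostly translation factors, were examined as a list of 25 genes, all tested. None was called, with 9 above and 16 below 0 and a median log2 fold change of -0.023. The smallest p-values in each direction were those of Hnrnpa1 (-0.15), without overlap and lower, and Vim (0.22), without overlap and higher. Zfas1, a non-coding host of small nucleolar RNAs, followed with 0.25 and overlapping groups, and Eif3k with -0.11 and no overlap. Of the 25 genes, 3 were lower without overlap and 1 higher, against 6.59% and 9.2% of all genes tested. Tpt1, on chromosome 14, had 1725, 873 and 765 CPM in vehicle and 1774, 800 and 1706 CPM in PSB-KD107, the same libraries being high as for Rpl15 and Rps24. Its log2 fold change of 0.35 became 0.04 with the chromosome offset.

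Of 89 genes for ribosome assembly and ribosomal RNA synthesis, 88 were tested and edgeR called none. Unadjusted p-values passed 0.05 in 2 that were higher and in 1 that was lower, against 6.47% and 2.93% of all genes tested. The median log2 fold change was -0.065. DESeq2 called 1 of the 88, against 2.86% of all genes. It was Ddx51, a helicase of large subunit assembly, with 57.7, 80.2 and 97.8 CPM in vehicle and 28.5, 47.8 and 32.8 CPM in PSB-KD107 (log2 fold change -1.11 ± 0.27 SE, edgeR adjusted p = 0.284, DESeq2 adjusted p = 0.0108).

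Eif6, which keeps the large subunit from joining too early, had 87.6, 96.1 and 93.8 CPM in vehicle and 115, 116 and 127 CPM in PSB-KD107 (log2 fold change 0.37 ± 0.088 SE, edgeR adjusted p = 0.285). Sbds, which releases Eif6 from the subunit, had 56.2, 55.2 and 56.6 CPM in vehicle and 66.4, 66.0 and 82.2 CPM in PSB-KD107 (log2 fold change 0.35). The ranges of the groups did not overlap in either gene. Of the 88 assembly genes, 3 had every PSB-KD107 library above every vehicle library, against 9.2% of all genes tested.

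Of 5 regulators of ribosomal protein expression and translation, Myc, a transcription factor that drives ribosome production, had 13.8, 14.2 and 14.2 CPM in vehicle and 23.8, 20.1 and 27.3 CPM in PSB-KD107. Its log2 fold change was 0.76 ± 0.15 (SE), with an adjusted p of 0.228 by edgeR and 0.00387 by DESeq2. Eif4ebp1, which encodes 4E-BP1, had 53.4, 70.0 and 65.3 CPM in vehicle and 95, 109 and 102 CPM in PSB-KD107, a log2 fold change of 0.69 ± 0.13 (SE), with an adjusted p of 0.206 by edgeR and 0.00387 by DESeq2. Both were higher in every PSB-KD107 library than in any vehicle library, by more than the spread within the groups. Of all genes tested, 9.2% had every PSB-KD107 library above every vehicle library. Only DESeq2 called Myc and Eif4ebp1, 2 of the 5 regulators, against 2.86% of all genes.

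Rps6kb1, the kinase of Rps6, had 129, 130 and 137 CPM in vehicle and 106, 108 and 123 CPM in PSB-KD107 (log2 fold change -0.23, edgeR adjusted p = 0.526). It was lower without overlap, as were 6.59% of all genes tested. Mtor (-0.05) and Larp1 (0.16) overlapped between the groups.

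The 5 genes outside all lists whose log2 CPM was most like the median of the ribosomal protein genes over the 6 libraries were R3hdm4 (Pearson r = 0.997), Zcchc9 (0.994), Per2 (0.991), Megf10 (0.988) and Tmod1 (0.988), out of 9916 genes compared. With 6 libraries and so many genes this is a description and was not tested. R3hdm4 had 99.1, 82.4 and 82.4 CPM in vehicle and 92.2, 73.0 and 84.5 CPM in PSB-KD107. The order of the libraries was that of the ribosomal protein genes, except that vehicle 2 and vehicle 4 were level.

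Library totals lay between 30917613 and 48756794 counts. Myoblast genes such as Myod1 and Des were present. The 9 genes of the list summed to 7452 to 7805 CPM of the library total in vehicle and 6957 to 7537 in PSB-KD107. Des was the largest part of the sum in every library. Msc was nearly absent, at 0.029 to 0.134 CPM, and Myf5 was low in vehicle 1 (3.57) and PSB-KD107 1 (4.37). Genes of differentiating muscle were high in the cells labelled as satellite cells, with 33700 to 40740 in vehicle and 29450 to 32800 in PSB-KD107 for 10 genes, without overlap. Of these 10, 6 had a log2 fold change below 0 and 4 above 0. At an unadjusted p-value under 0.05, 4 were lower, against 2.93% of all genes tested. None was called by edgeR, and DESeq2 called 2, Myh3 and Mymk, both lower, against 2.86% of all genes. Of the 8 tested myoblast genes, 6 were below 0 and 2 above 0. DESeq2 called 1 of these 8, Pax7, which was lower. The sum of the differentiating muscle genes was highest in vehicle 1 and lowest in PSB-KD107 2, as for the ribosomal protein genes. The libraries between them came in another order, with PSB-KD107 1 next to the lowest at 30440. The part of differentiation in the levels of the ribosomal protein genes was not tested. The lists of fibroblast, immune and endothelial genes summed to at most 11.1, 6.79 and 9.41, and Lum and Adgre1 were at 0 in every library.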

How the data were processed

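Polyadenylated RNA of 6 libraries was sequenced in paired-end mode with a directional kit and aligned by the authors with STAR to mm10 (GRCm38), the build in the submitters' processing notes. The authors deposited raw counts per gene with no normalization. The counting program, its annotation and its use of strand are not given in the sources used here, so counts of overlapping genes or near-identical copies could be split. The 271 listed ribosomal pseudogenes marked -ps held 0.251% to 0.271% as many counts as the 85 genes. Groups came from the sample labels and the column names. The libraries numbered 4 were assigned to a group only.

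Counts were filtered with filterByExpr, scaled with TMM factors and tested with the quasi-likelihood test of edgeR 4.0.16 (limma 3.58.1, R 4.3.3), with Benjamini-Hochberg adjustment over 14165 genes and a threshold of 0.05. DESeq2 1.42.0 was an alternative. Tables were made in Python 3.11.15 with pandas 2.3.3 and numpy 2.4.6. Intervals of fold changes use the moderated degrees of freedom. The fit was tested on simulated data. Coordinates and lengths are from GENCODE M21. Log2 deviations used an offset of 0.1 CPM. Chromosome medians used genes with a mean of at least 5 CPM. Errors are SDs over 3 libraries unless stated. Totals of 30917613 to 48756794 counts set a floor of 3 counts at 0.0596 to 0.0962 CPM. The p-values measure the spread between these libraries.

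The genes, lists and tests were chosen with earlier results of these data known. The genes named were the 5 smallest p-values in each direction, paralog pairs, functional groups, the 3 highest and 3 lowest levels per length in each subunit, 4 ribosomal genes outside the rule, 3 genes in each direction from the lists of TOP mRNAs and ribosome assembly, 5 regulators and the 5 genes most like the median; not all are discussed, and results of a few are left out here. Alternatives were other scalings, no filter, DESeq2, each library left out, a replicate block and, chosen after seeing the data, a chromosome offset, the block over 6 libraries, the same 4 libraries without it, and the genes outside chromosomes 14 and 6.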

Additional observations from a re-analysis of the deposited data

How the results depend on the processing

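No ribosomal protein gene was called by edgeR or DESeq2 under any alternative run. The median log2 fold change lay between -0.14 and 0.014 for the small subunit and between -0.12 and -0.0017 for the large subunit when libraries were left out in turn, and the difference between the subunits between -0.016 and 0.026. The summed share of counts (PSB-KD107 minus vehicle, -0.099 percentage points) lay between -0.24 and 0.066 points. It turned positive without vehicle 1 (0.066) and without PSB-KD107 2 (0.016). With RLE factors, total counts only and TMM factors computed without these genes, 66, 63 and 66 of the 80 genes were below 0. Over all genes, edgeR called 1 with total counts only and 8 with no filter, and DESeq2 called 407; the cause was not tested.

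The replicate block could be fitted as planned only on libraries 1 and 2, whose numbers the labels and the table share. It called 2456 genes, against 0 in the same 4 libraries with no block, and put 1 ribosomal protein gene that was higher and 17 that were lower past an unadjusted 0.05, against 15.5% and 15.1% of all genes, with a smallest adjusted p of 0.0506 among them. The block by the table's numbers over 6 libraries called 0. Deviations from the group means correlated at 0.632, 0.52 and -0.13 for the numbers 1, 2 and 4. The numbers were therefore not taken to pair all 6 libraries, although those numbered 1 and those numbered 2 each correlated. The main test had no block, so any differences between mice stayed within the spread of the groups. Vehicle 4 correlated most with PSB-KD107 2 (0.645). No 2 libraries agreed within sampling noise, the closest being vehicle 2 and vehicle 4, at a chi-square of 17.4 per gene.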

Other observations

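The shift of chromosome 14 ran along most of the chromosome. In 4 groups of 82 genes in order of position, the medians of PSB-KD107 4 were 0.52, 0.47, 0.47 and 0.036, whereas those of vehicle 1 were 0.34, 0.33, 0.39 and 0.43 and those of PSB-KD107 1 were 0.34, 0.43, 0.40 and 0.54. The last group starts at position 67715937, and Rpl15 and Rps24 lie in the first. On chromosome 6 the medians of PSB-KD107 4 were between -0.46 and -0.39 in all 4 groups.

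Gnl3, a nucleolar GTPase on chromosome 14, had the smallest p-value among assembly genes above 0 after Eif6 and Sbds, with a log2 fold change of 0.48 that became 0.14 with the chromosome offset.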
